A study of Homo sapiens with 8 samples.

Results

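Gene-desert intervals were stretches of chromatin carrying H3K27ac, the acetylation of lysine 27 of histone H3 that marks active promoters and enhancers, at sites far from any protein-coding gene. They were chosen by position and by a filter on peak height. Overlapping peaks of 6 H3K27ac peak lists were merged, and an interval was kept when its peaks reached a fold of at least 5 over local background in all 3 WT libraries or in all 3 CREBBP-KO libraries. A kept interval counted as a desert interval when the summit of its highest peak lay outside every protein-coding gene of GENCODE release 44, over 200 kb from the nearest protein-coding transcript start and over 3 kb from the start of any other transcript. This gave 2210 desert intervals out of 35524 kept intervals (6.22%) on 24 chromosomes of hg38. No second histone mark was measured, so they are called acetylated intervals and not enhancers in what follows.

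The libraries came from HCEC-1CT, an immortalized, non-transformed line of human colonic epithelial cells. WT denotes the parental line, and CREBBP-KO (CBP KO in the labels) denotes cells in which CREBBP, the acetyltransferase also called CBP, was disrupted with Cas9. Each genotype had 3 populations, and chromatin was taken from healthy growing cells. Cas9 was expressed from a doxycycline-inducible construct, and the methods call the knockout lines monoclonal but also describe pools of several clones set against a matched pool of parental subclones. The p-values below measure the spread between populations of 1 such line per genotype. The knockout was made by small insertions or deletions, so the acetylation of the CREBBP promoter does not check it. The colonic identity of the cells was not visible at the marker promoters: none of CDX1, CDX2, VIL1, CDH17 or LGR5 had a peak within 1 kb of a protein-coding start in any of the 6 libraries, nor had the epithelial genes CDH1 and KRT19. EPCAM and KRT8 had a promoter peak in all 6, EPCAM at percentiles of 0.175 to 46.1, as had the fibroblast-associated genes COL1A1 and PDGFRB, which stood at percentiles of 93.3 or more in every list. The keratin gene KRT18 had one in 3 WT and 2 CREBBP-KO libraries, the endothelial gene PECAM1 in 0 WT and 3 CREBBP-KO libraries (percentiles 12.5 to 39.6), and the leukocyte gene PTPRC in none.

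CREBBP and its paralogue EP300 acetylate histone H3 at lysine 27, mainly at enhancers, where transcription factors recruit them. Enhancers are short DNA elements that bind these factors and can act on a promoter over long distances by chromatin looping. Deserts, the gene-poor stretches between neighbouring genes, often flank genes that encode developmental transcription factors and signalling molecules, and several are known to hold enhancers of such genes. The gene that lies nearest to an interval is used below as a name for its position and not as its target.

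The height of each peak was read as its fold and then as its percentile among all peaks of its own list. The highest percentile is 100. Percentiles are not free of list length, because further weak peaks in a longer list raise the percentile of its other peaks. List lengths were 93567, 92891 and 86163 peaks for WT against 111697, 105017 and 99008 for CREBBP-KO, and the number of reads behind each list is not given in the sources used here. For tests, intervals were ranked within each library by their highest fold and the ranks turned into normal scores, so that 1 unit is 1 SD of the intervals of a library; the shift of an interval is its CREBBP-KO minus WT difference in these scores, fitted with limma over 34847 intervals with a peak in all 6 libraries.

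The sequences of 4 desert intervals are shown first, as 300 bases centred on the summit on the plus strand of hg38, because they carry the extremes described below: the highest interval of all, the largest rise, the largest fall, and the fall with the lowest GC content. Capitals mark matches, on either strand, to any of 8 motifs that were searched: the AP-1 motif TGANTCA, the TEAD motif GGAATG, the CREB/ATF motif TGACGT, the RUNX motif TGTGGT, the FOX motif TGTTTAC, the GATA motif AGATAA, the ETS motif CCGGAAG and the SP/KLF motif GGGCGG.
MEIS1-ETAA1 desert, chr2:66840492-66840791: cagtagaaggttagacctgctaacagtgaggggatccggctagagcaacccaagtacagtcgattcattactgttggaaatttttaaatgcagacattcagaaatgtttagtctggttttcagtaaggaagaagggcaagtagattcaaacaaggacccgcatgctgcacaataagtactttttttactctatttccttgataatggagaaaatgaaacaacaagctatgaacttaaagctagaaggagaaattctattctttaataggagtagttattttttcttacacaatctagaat
COG6-FOXO1 desert, chr13:40059241-40059540: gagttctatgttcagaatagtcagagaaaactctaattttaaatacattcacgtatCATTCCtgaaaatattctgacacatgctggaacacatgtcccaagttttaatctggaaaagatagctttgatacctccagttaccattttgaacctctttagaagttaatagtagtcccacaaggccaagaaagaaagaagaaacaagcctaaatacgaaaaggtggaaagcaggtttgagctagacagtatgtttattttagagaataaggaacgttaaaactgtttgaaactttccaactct
EYA4-TCF21 desert, chr6:133637128-133637427: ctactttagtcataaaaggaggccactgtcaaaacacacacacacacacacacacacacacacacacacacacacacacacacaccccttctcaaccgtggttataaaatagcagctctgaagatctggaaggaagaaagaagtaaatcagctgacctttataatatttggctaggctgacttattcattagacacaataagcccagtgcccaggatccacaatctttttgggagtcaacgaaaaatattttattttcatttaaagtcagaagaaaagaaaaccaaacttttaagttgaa
ARRDC3-NR2F1 desert, chr5:92007595-92007894: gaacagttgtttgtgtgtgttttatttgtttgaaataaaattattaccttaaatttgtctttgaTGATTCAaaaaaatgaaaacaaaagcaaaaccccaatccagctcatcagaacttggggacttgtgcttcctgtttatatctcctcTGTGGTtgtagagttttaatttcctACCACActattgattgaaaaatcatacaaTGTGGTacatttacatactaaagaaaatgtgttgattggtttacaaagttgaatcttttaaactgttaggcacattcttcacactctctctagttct

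The MEIS1-ETAA1 and EYA4-TCF21 sequences held no match, and the EYA4-TCF21 sequence had a run of alternating c and a. COG6-FOXO1 held 1 match to the TEAD letters, and ARRDC3-NR2F1 held 1 match to AP-1 and 3 to RUNX. The GC content of these windows ran from 31.7% for ARRDC3-NR2F1 to 38.3% for EYA4-TCF21.

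The summits of the 2210 desert intervals lay at a median of 394 kb from the nearest protein-coding start (quartiles 275 and 623 kb), with 812 beyond 500 kb and 202 beyond 1000 kb. The farthest lay 4153 kb away, on the short arm of chromosome 21 (chr21:6368682-6369370), and stood at percentiles 87.8, 86.6 and 85.4 in WT and 89.6, 92.6 and 91.6 in CREBBP-KO. Its CREBBP-KO percentiles were all above those of WT, but the shift did not pass the test (shift 0.24 ± 0.17 SE, limma with Benjamini-Hochberg adjustment, adjusted p = 0.275). The next farthest, near RPIA on chromosome 2 at 2907 kb, passed the fold filter in WT alone and had a shift of -0.78 ± 0.29 SE (limma adjusted p = 0.0371). Its adjusted p was 0.0351 without CREBBP-KO replicate 1 and 0.0668 to 0.128 with any other library left out. The third, in the PCDH7-ARAP2 desert at 2514 kb, had a peak in 2 of the 3 CREBBP-KO libraries and was not tested. At the 200 kb border, the intervals just inside lay 200.4, 200.5 and 200.7 kb from the starts of EDN1, PAPPA and FBXO11, and those just outside lay 199.8, 199.7 and 199.7 kb from PLK2, PPARGC1A and IPO8. The mean percentiles over the 6 libraries were 88.3, 82.0 and 89.9 for those inside and 88, 71.0 and 42.1 for those outside, with libraries that had no peak counted as 0.

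Deserts differed widely in how many acetylated intervals they held. The 2210 intervals fell into 476 deserts, each the stretch between neighbouring protein-coding genes, with a median of 3 intervals and with 124 deserts holding a single interval. At the other end, 60 deserts with at least 10 intervals held 897. Chromosome 4 held the most, with 245 desert intervals or 12.9% of its kept intervals, whereas gene-rich chromosome 19 held 2 and chromosome 22 held 0. Deserts free of protein-coding genes were not free of transcripts: 837 summits (37.9%) lay inside a lncRNA gene, against 1562 (27.6%) of the 5664 intergenic intervals with a summit 10 to 200 kb from a protein-coding start and over 3 kb from any other. When intervals had to lie over 200 kb from the start of any transcript, coding or not, and outside every annotated gene, 75 were left.

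The base composition of the desert intervals set them apart from those nearer to genes. In the 1000 bases around the summit the median GC content was 38.3% in deserts (quartiles 35.1 and 41.8%), 42.6% in intergenic intervals and 62.4% in the 10469 promoter intervals, whose summit lay within 1 kb of a protein-coding start. Of the 8 motifs, the GATA letters were found in 23.5% of desert intervals, against 17.3% of intergenic, 5.02% of promoter and 14.1% of all kept intervals, in windows of the same 300 bases. The FOX letters were found in 6.65%, against 5.24% of intergenic intervals. AP-1, the dimer of FOS and JUN proteins that occupies many epithelial enhancers, had matches in 12.4% of desert and 12.2% of intergenic intervals, against 3.02% of promoters. The letters for RUNX were in 18.6% and 19.1%, and those for TEAD, the partners of YAP, in 16.2% and 17.1%. The GC-rich letters ran the other way, with SP/KLF in 3.12% of desert, 7.04% of intergenic and 57.0% of promoter intervals, and ETS in 0.950%, 1.52% and 8.15%. CREB/ATF letters were found in 1.67% of desert intervals and 2.54% of intergenic ones. These shares are descriptions of letters in windows that differ in GC content.

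Among intervals that had passed the same fold filter, those far from genes were about as high as those nearer to them in WT. There, the median desert interval stood at percentiles 77.7, 77.9 and 74.6 of the 3 lists, and the median intergenic interval at 78.1, 77.9 and 74.8. In CREBBP-KO the desert medians were 77.8, 77.2 and 75.7, and the intergenic medians 80.3, 79.2 and 78.0. The desert median minus the intergenic one was therefore -0.378, 0.0632 and -0.214 points in WT and -2.5, -1.94 and -2.27 points in CREBBP-KO. The 3 CREBBP-KO differences did not overlap the WT ones (mean difference -2.06 points, exact permutation test, two-sided p = 0.1, the smallest that 3 libraries against 3 allow). Over all 6 libraries the gap averaged -1.21 points and was negative in 5 of 6 (exact sign-flip permutation test, p = 0.0625). As folds, the desert medians were 8.18, 8.20 and 7.69 in WT and 7.35, 7.72 and 7.63 in CREBBP-KO, with overlap. Intergenic median folds were 8.28, 8.18 and 7.72 in WT and 8.05, 8.26 and 8.25 in CREBBP-KO. Of the desert intervals, 185 stood at or above percentile 90 in all 6 libraries and 12 at or above percentile 99 in all 6. In single lists, 66, 64 and 42 desert intervals reached percentile 99 in WT and 37, 39 and 29 in CREBBP-KO, and the ranges did not overlap (exact permutation test, p = 0.1). At percentile 90 the counts were 438, 460 and 344 in WT and 365, 344 and 303 in CREBBP-KO, with overlap (exact permutation test, p = 0.3).

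**Figure D1:**
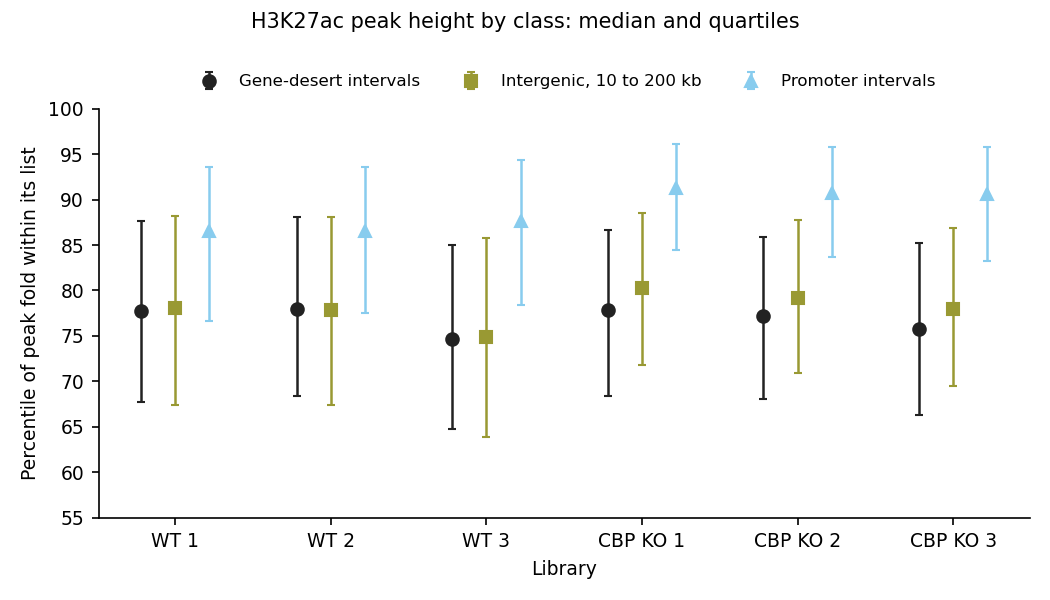
Median percentile of peak fold within its list, with quartiles as bars, for gene-desert, intergenic (10 to 200 kb) and promoter intervals in each of the 6 libraries; the vertical axis starts at 55. Desert minus intergenic medians lie between -0.378 and 0.0632 points in WT and between -2.5 and -1.94 points in the libraries labelled CBP KO, while promoter medians are 86.5 to 87.6 in WT and 90.6 to 91.3 in CBP KO.

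The 6 highest desert intervals stood at or above percentile 99.3 in every library of both genotypes. The top of the list was an interval 399.96 kb from the start of MEIS1, a homeobox transcription factor (chr2:66836667-66842926), with folds of 35.5, 32.2 and 28.6 in WT and 28.9, 36.2 and 36.1 in CREBBP-KO. All 6 libraries put it at or above percentile 99.5, and the groups overlapped (shift -0.31 ± 0.22 SE, limma adjusted p = 0.265). An interval 502 kb from JARID2, a Polycomb component, had folds of 31.5, 32.1 and 27.1 in WT and 34.1, 37.8 and 34.6 in CREBBP-KO, and its shift was -0.01 ± 0.21 SE (limma adjusted p = 0.968). An interval of 28562 bases beside FN1, the gene for fibronectin, lay in a lncRNA gene, LINC00607, and had folds of 36.0, 32.6 and 27.6 in WT and 29.8, 31.5 and 39.4 in CREBBP-KO. The folds of the genotypes overlapped at the MEIS1 and FN1 intervals, and at the JARID2 interval the folds did not overlap while the percentiles did. The other 3 of the highest 6 lay in the UBE2V2-CLXN desert, in the OTOL1-SI desert beside the brush-border enzyme gene SI, and in the HAS2-ZHX2 desert beside the hyaluronan synthase gene HAS2. Only the HAS2-ZHX2 interval passed the test among the 6 (percentiles 99.9, 99.9 and 99.9 in WT, 99.6, 99.3 and 99.5 in CREBBP-KO, shift -0.54 ± 0.19 SE, limma adjusted p = 0.0289), and with the GC trend described below removed its shift was 0.03 (adjusted p = 0.905). The call was also lost with any 1 of WT replicates 1 and 2 and CREBBP-KO replicates 2 and 3 left out (limma adjusted p 0.0586 to 0.108).

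Desert peaks made up a smaller share of every CREBBP-KO list than of every WT list, in a design whose test cannot pass 0.05. Of the peaks with a fold of at least 5, those lying in deserts by the same rule on the summit made up 6.77%, 6.99% and 6.33% in WT and 5.69%, 5.89% and 5.88% in CREBBP-KO. The highest knockout list was below the lowest WT list. The means were 6.70% ± 0.334 and 5.82% ± 0.113 (SD, n = 3 libraries each), a difference of -0.877 percentage points (exact permutation test, two-sided p = 0.1, the smallest possible). Among peaks of any fold the shares were 7.13%, 7.25% and 6.88% in WT and 6.18%, 6.42% and 6.43% in CREBBP-KO, also without overlap. The number of such peaks of fold 5 or more was 2632, 2727 and 2346 in WT and 2319, 2368 and 2293 in CREBBP-KO, where the ranges overlapped (exact permutation test, p = 0.2). The CREBBP-KO lists were longer, and with the same number of top peaks taken from each list the share differed by -0.736 points. The part of GC content in this share was not tested.

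Whether a desert interval passed the fold filter in 1 genotype or in both was fixed by the rule and is given as a description. Peak height in a population of cells cannot tell fewer acetylated cells from less acetylation per cell. Of the 2210, 1349 (61.0%) passed in both genotypes, 508 (23%) did so only in the WT libraries and 353 (16.0%) only in the CREBBP-KO libraries, where the latter shares over all kept intervals were 11.3% and 14.8%. Passing in 1 genotype alone seldom meant that the peak was missing in the other: 442 of the 508 still had peaks in each CREBBP-KO library, below the fold limit in at least 1 of them, and 315 of the 353 still had peaks in each WT library. A peak was present in all 6 libraries at 2106 desert intervals, and these were tested. The other 104 lacked a peak in at least 1 library, 66 of them in CREBBP-KO libraries and 38 in WT libraries. No CREBBP-KO library had a peak at 18 (0.163% of all kept intervals had none), and no WT library had one at 16 (0.293% of all).

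To ask which desert intervals changed place, the shifts of all 34847 intervals were tested together, with Benjamini-Hochberg adjustment over them. At adjusted p under 0.05, 687 of the 2106 tested desert intervals were lower in CREBBP-KO (32.6%) and 215 were higher (10.2%), where 18.7% of all tested intervals were lower and 18.6% higher. In the intergenic set 1286 of 5483 were lower (23.5%) and 969 higher (17.7%), and in the promoter set 820 of 10407 were lower (7.88%) and 2811 higher (27%). The split of the calls thus ran with distance from genes, with 76.2% of desert calls, 57.0% of intergenic calls and 22.6% of promoter calls being lower. It also ran with base composition. After a cubic trend of each library's scores on GC content was removed, 405 desert intervals were lower (19.2%) and 339 higher (16.1%). Of all tested intervals, 17.1% were then lower and 16.0% higher. The shares were 18.6% lower and 19.2% higher in the intergenic set, and 16.5% and 13.7% in the promoter set. Lower calls then made up 54.4% of desert calls, 49.3% of intergenic calls and 54.7% of promoter calls. With the GC trend removed, the split therefore no longer followed distance across these sets. The median shift of the desert intervals was -0.28 units (quartiles -0.77 and 0.22) and -0.05 with the GC trend removed, beside 0.02 and -0.01 over all tested intervals. The correction was added after the data had been seen.

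Intervals that passed the filter in 1 genotype alone were kept through the genotype in which they were high, so their direction is no result. Of 442 tested that passed in WT alone, 327 were lower and 0 higher, and of 315 that passed in CREBBP-KO alone, 132 were higher and 0 lower. Among the 1349 desert intervals that passed in both genotypes, 360 were lower (26.7%) and 83 higher (6.15%), where 15.8% and 15.5% of all tested intervals of that kind were. With the GC trend removed the counts were 191 lower (14.2%) and 168 higher (12.5%), where 15.7% and 12.2% of all were. Both shares were then close to the background. Of the calls over all tested desert intervals, 397 of the 687 lower and 206 of the 215 higher ones were called in the same direction with the GC trend removed, and 0 were called in the opposite direction.

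Along the distance axis, the share of intervals lower in CREBBP-KO was 22% at 10 to 50 kb, 26.8% at 100 to 200 kb, 28.9% at 200 to 300 kb, 32.1% at 300 to 500 kb, 36.3% at 500 to 1000 kb and 35.8% beyond 1000 kb. The share higher went from 18.5% at 10 to 50 kb to 12.9% at 200 to 300 kb, 6.51% at 500 to 1000 kb and 8.56% beyond 1000 kb. The median GC content fell along the same axis from 44% to 36.2%. Once the GC trend was removed, the 4 desert bins had between 18.2% and 21.4% lower and between 15.5% and 16.4% higher. The bins at 10 to 50, 50 to 100 and 100 to 200 kb then had 19.1%, 17.7% and 18.5% lower. Their higher shares were 18.0%, 19.8% and 20.6%, each above those of the desert bins. These bins include intervals that passed the fold filter in 1 genotype alone, and 23% of desert and 14.5% of intergenic intervals passed in WT alone. Among those that passed in both genotypes, 26.7% of desert and 20.4% of intergenic intervals were lower, and 6.15% and 11.2% higher. With the GC trend removed these shares were 14.2% and 16.0% lower, and 12.5% and 13.3% higher.

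**Figure D2:**
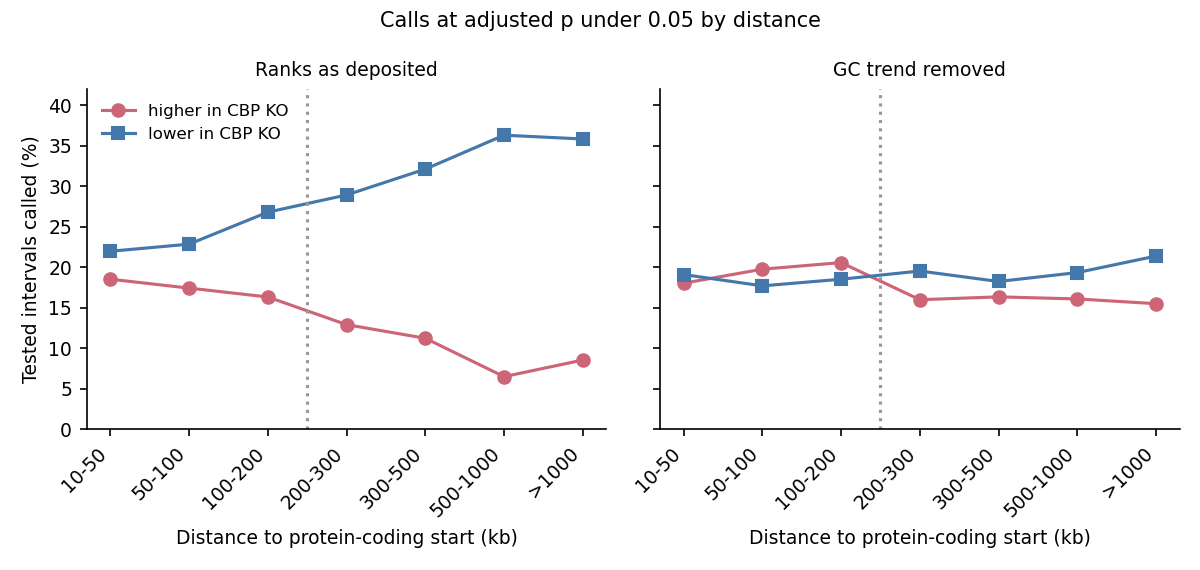
Share of tested intervals called higher or lower in the libraries labelled CBP KO (percent, limma adjusted p under 0.05) against distance to the nearest protein-coding start, with ranks as they were on the left and with the GC trend removed on the right; the dotted line marks 200 kb. The lines part with distance on the left, to 36.3% lower and 6.51% higher at 500 to 1000 kb, and run between 15.5% and 21.4% on the right.

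GC content could also be held roughly constant without a fitted trend, by cutting all tested intervals into 5 bins of nearly equal size. In the lowest bin (25.7 to 38.2% GC), 40.5% of 1037 desert intervals were lower and 5.88% higher, against 37.5% and 8.38% of 1277 intergenic intervals. In the next bin (38.3 to 42.9%) the desert shares were 30.2% and 10.7%, and the intergenic ones 26.1% and 14.4%. In the middle bin 18.4% of 347 desert intervals were lower and 17.0% higher, and the intergenic shares were 18.0% and 20.5%. In the next to highest bin (49.7 to 60.7%), with 59 desert intervals, the direction was the other way, with 4 lower and 22 higher, and 10.6% and 30.3% of 775 intergenic intervals were. The highest bin (60.8 to 86% GC) held 10 desert intervals, 2 lower and 3 higher, and 164 intergenic ones, of which 6.71% and 31.7% were. Across the 2106 tested desert intervals the correlation of GC content with shift was 0.261, and it was 0.329 across all tested intervals; these points share the same 6 libraries. The bins and the correlations include intervals that did not pass the fold filter in both genotypes, and the direction of those is no result. Desert and intergenic intervals were of that kind in unequal shares. Neither the bins nor the correlations were repeated without them. Whether the trend with GC content belongs to the genotypes or to their libraries cannot be told apart in this design.

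**Figure D3:**
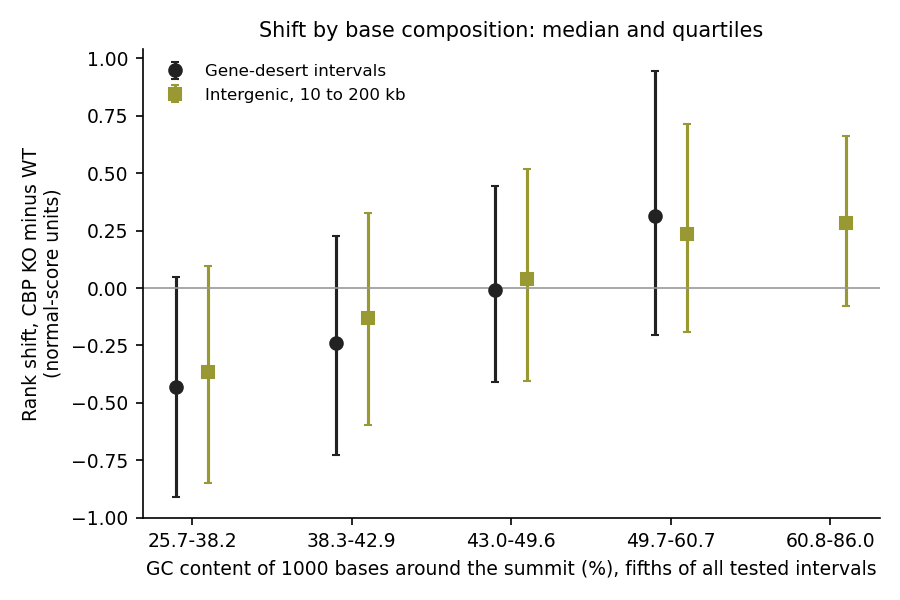
Rank shift, CREBBP-KO (CBP KO) minus WT in normal-score units, by 5 bins of GC content of 1000 bases around the summit, with medians as points and quartiles as bars for desert and intergenic intervals. The desert medians go from -0.43 in the lowest bin to 0.31 in the next to highest. The highest bin is not drawn for deserts, as it held 10 intervals. Intervals that did not pass the fold filter in both genotypes are included.

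In the gap between desert and intergenic intervals the same dependence was seen per library. The median score of tested desert intervals minus that of intergenic ones was -0.0125, 0.00182 and -0.0133 in WT and -0.187, -0.14 and -0.146 in CREBBP-KO, a difference between genotypes of -0.150 (exact permutation test, p = 0.1, the smallest possible). With the GC trend removed, the values were -0.0847, -0.0844 and -0.0463 in WT and -0.0867, -0.0654 and -0.0877 in CREBBP-KO, a difference of -0.00816 (exact permutation test, p = 0.5). In that setting the desert intervals were below the intergenic ones in all 6 libraries, with differences of -0.0877 to -0.0463 units. The correction kept each interval's mean score over the 6 libraries, so the mean gap was not freed of GC content. It averaged -0.0829 units before the correction and -0.0758 after it, and its common sign is no separate result. The width of the highest peak in a desert interval had a median of 2037, 2121 and 1964 bases in WT and 1689, 1897 and 2058 in CREBBP-KO, with overlapping ranges. Relative to intergenic intervals of the same library the widths differed by 19.5, -0.5 and -14 bases in WT, and by -189, -122 and -90.5 bases in CREBBP-KO (difference -135.5 bases, exact permutation test, p = 0.1). The shortest peak in a list was 300 to 324 bases in WT and 254 to 315 in CREBBP-KO, and its part in the widths was not tested. Both the score gap and the width gap include intervals that passed the fold filter in 1 genotype alone. Desert and intergenic intervals did so in unequal shares, and the part of this in the gaps was not tested.

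The largest single changes were chosen as the largest shifts without overlap between genotypes, and each rise had passed the fold filter in CREBBP-KO alone and each fall in WT alone. Their values are therefore given as a description, with no test. The largest rise was at chr13:40056916-40062432 in the COG6-FOXO1 desert, 404 kb from COG6, a Golgi complex gene, with FOXO1, a forkhead transcription factor of insulin signalling, on its other side. It stood at percentiles 48.4, 19.1 and 17.4 in WT and 92.4, 95.1 and 90.3 in CREBBP-KO, with folds of 4.21, 2.98 and 3.05 against 13.9, 17.6 and 13.9. The lowest CREBBP-KO library was far above the highest WT library. The shift was 3.10 ± 0.29 SE. A second interval of that desert, inside the lncRNA gene LINC00598 (chr13:40205175-40207684), stood at percentiles 25.6, 3.03 and 52.9 in WT and 79.7, 83.7 and 81.0 in CREBBP-KO (shift 2.29 ± 0.36 SE). The WT values of this second interval were widely spread but did not reach those of CREBBP-KO.

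The remaining 6 of the 8 largest rises lay on other chromosomes. At chr6:57982491-57984973, in the PRIM2-KHDRBS2 desert next to the primase gene PRIM2, the percentiles were 16.4, 18.2 and 11.1 in WT and 82.8, 75.9 and 84.6 in CREBBP-KO (shift 2.56 ± 0.29 SE). Near TMEM72, in the desert that begins at the chemokine gene CXCL12 (chr10:44705565-44708127), they were 60.2, 61.4 and 40.9 in WT and 94.1, 89.2 and 90.7 in CREBBP-KO (shift 2.12 ± 0.25 SE). A further 3 lay between CCDC171 and the zinc-finger gene BNC2 on chromosome 9, 1073 kb from ARAP2 in the PCDH7-ARAP2 desert on chromosome 4, and near C6orf118 in the desert that begins at QKI, the gene for an RNA-binding protein, with shifts of 1.89, 1.87 and 1.85.

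The largest fall was at chr6:133634684-133638421, inside the lncRNA gene TARID in the EYA4-TCF21 desert, 252 kb from TCF21, which encodes a mesodermal helix-loop-helix factor. It stood at percentiles 91.0, 82.3 and 86.1 in WT and 51.7, 17.9 and 23.1 in CREBBP-KO, with folds of 13.2, 9.37 and 11.1 against 4.14, 2.93 and 3.01. The CREBBP-KO libraries varied more among themselves than the WT ones (SD 18.2 against 4.40 points). The shift was -2.93 ± 0.31 SE. In the ARRDC3-NR2F1 desert (chr5:92007148-92008432), whose far side is NR2F1, the gene for an orphan nuclear receptor, the percentiles were 74.0, 79.8 and 76.0 in WT and 6.66, 58.0 and 42.1 in CREBBP-KO (shift -2.18 ± 0.34 SE). That interval, whose sequence is printed above, had the lowest GC content of the 16.

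A further 5 falls were near EPHA3, an ephrin receptor gene, in the NETO1-FBXO15 desert on chromosome 18, 1811 kb from SLITRK5, near the heparan sulfate sulfotransferase gene HS3ST3A1, and between the cadherin genes CDH9 and CDH6. Their shifts were -2.47, -2.43, -2.43, -2.23 and -2.20. With the GC trend removed the 8 rises had shifts of 1.73 to 3.32 and the 8 falls shifts of -2.68 to -1.61.

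**Figure D4:**
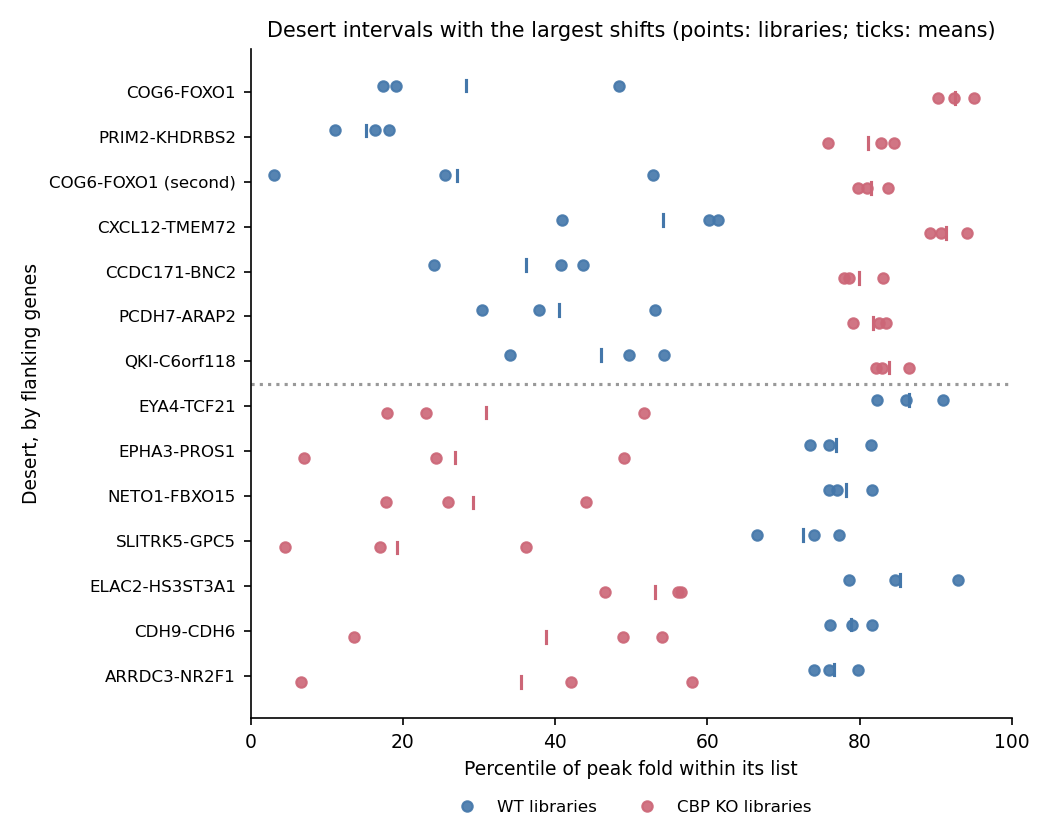
Percentile of peak fold within its list at 7 of the 8 desert intervals with the largest rise (above the dotted line) and 7 of the 8 with the largest fall (below it), chosen with at most 2 per desert; points are single libraries, blue for WT and red for CREBBP-KO (CBP KO), and vertical ticks are means of 3. The genotypes do not overlap because the intervals were chosen so, and the widest gap between means is at PRIM2-KHDRBS2, from 15.2 to 81.1.

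Intervals without any peak in 1 genotype were rare and several of them shared a desert. Of the 16 desert intervals with no WT peak, 9 lay in the COG6-FOXO1 desert, among them chr13:40328432-40331240 in LINC00598, with percentiles of 78.5, 83.6 and 74.1 in CREBBP-KO. Outside that desert, the highest was an interval 335 kb from NUAK1 on chromosome 12, at 82.1, 78.3 and 74.6. Of the 18 with no CREBBP-KO peak, 4 lay in the NETO1-FBXO15 desert and 3 in the AGA-TENM3 desert on chromosome 4. Others stood near SPANXN2 on chromosome X (78.2, 83.8 and 80.0 in WT) and near the prostaglandin receptor gene PTGER3 on chromosome 1 (76.2, 77.1 and 71.2 in WT). A missing peak means that none was called, and the reads behind it were not analysed here.

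Called intervals of a desert pointed the same way in some deserts and both ways in others. At least 2 intervals were called in 193 deserts, and in 96 of these all called intervals were lower, in 15 all were higher and in 82 both directions occurred. With the GC trend removed the 166 deserts with at least 2 calls split into 44, 34 and 88. Of the 687 lower calls 327, and of the 215 higher calls 132, came from intervals that passed the fold filter in 1 genotype alone. Their direction was fixed by the filter, so agreement within a desert is given as a description. The median GC content of called-higher desert intervals was 40.7% and of called-lower ones 36.9%.

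The COG6-FOXO1 desert was the one with most intervals that passed in CREBBP-KO alone. It spans 764 kb of chromosome 13 and held 18 acetylated intervals, 16 of which passed the fold filter only in CREBBP-KO and 0 only in WT. Of the 8 with a peak in all 6 libraries, 4 were higher in CREBBP-KO and 0 lower, but 6 of the 8 had passed in CREBBP-KO alone, and of the 2 that passed in both genotypes 0 were called. The NETO1-FBXO15 desert on chromosome 18 was its counterpart: 13 of 17 intervals passed the fold filter only in WT and 0 only in CREBBP-KO, and all 8 tested ones were lower. Of these, 4 had passed in both genotypes, and 3 of the 4 were still lower with the GC trend removed. Those 17 summits lay within 273 kb of a desert 1205 kb wide. In the METTL15-KCNA4 desert on chromosome 11, 13 of 20 tested intervals were lower and 0 higher. Of its 11 that passed in both genotypes, 6 were lower, and 3 with the GC trend removed. The DPPA4-NECTIN3 desert on chromosome 3 had 10 of 14 lower, the MAT2B-TENM2 desert on chromosome 5 had 10 of 17, and the NYAP2-IRS1 desert beside the insulin receptor substrate gene IRS1 had 6 of 15. Among their 10, 6 and 13 tested intervals that passed in both genotypes, 8, 4 and 5 were lower, and 5, 2 and 2 with the GC trend removed. These deserts were named after their counts were seen, beside 26.7% lower (14.2% with the GC trend removed) among all desert intervals that passed in both.

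In each of the 5 deserts with the most acetylated intervals both directions were called, beside 32.6% lower and 10.2% higher over all tested desert intervals. No test set these deserts apart from that background. The richest was CITED2-NMBR on chromosome 6, which begins at CITED2, a co-regulator that binds CREBBP and EP300, and held 46 intervals over 2684 kb. All 46 had a peak in every library, with 17 lower and 5 higher, and 8 and 8 with the GC trend removed. Its highest interval (chr6:140535437-140542023) had folds of 33.9, 33.6 and 21.9 in WT and 29.4, 25.7 and 32.1 in CREBBP-KO, with overlap. Next came MYC-GSDMC on chromosome 8, downstream of the growth regulator MYC, with 34 intervals, of which 9 were lower and 4 higher (6 and 5 with the GC trend removed). Its highest interval lay in the lncRNA gene PVT1, at percentiles 99.4, 99.3 and 99.3 in WT and 99.7, 99.6 and 99.3 in CREBBP-KO, and its shift of 0.10 ± 0.18 SE did not pass the test (limma adjusted p = 0.693). ADAMTS5-N6AMT1 on chromosome 21, which begins at an aggrecanase gene, held 33 intervals with 11 lower and 4 higher, ZEB2-ACVR2A on chromosome 2 held 29 with 9 and 3, and PLA2G4A-BRINP3 on chromosome 1 held 23 with 5 and 1. With the GC trend removed these 3 had 6 lower and 8 higher, 4 and 6, and 3 and 6. The direction of their majority therefore turned with that correction. All these counts include intervals that passed the fold filter in 1 genotype alone, whose direction is no result. Among those that passed in both genotypes, the 5 deserts had 11, 5, 2, 4 and 3 lower and 2, 3, 0, 1 and 0 higher, in the order named. With the GC trend removed they had 3, 3, 1, 1 and 1 lower and 4, 3, 2, 3 and 4 higher.

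**Figure D5:**
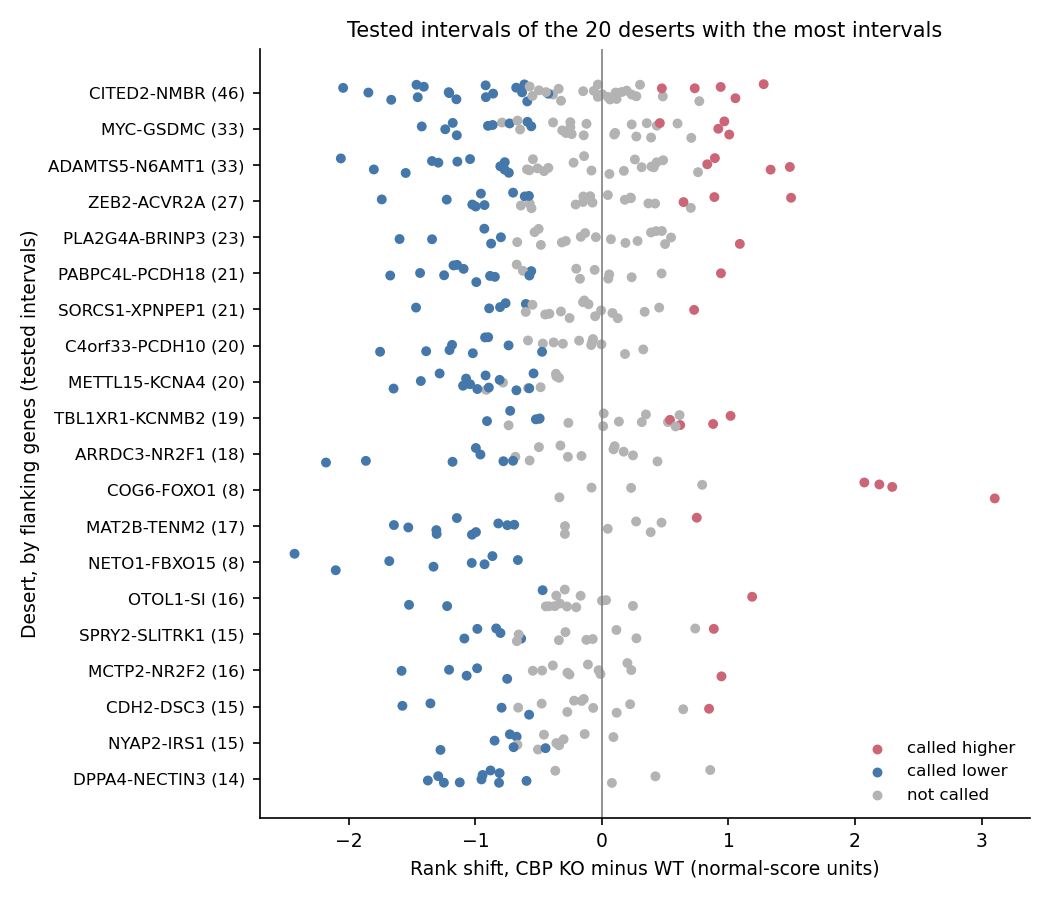
Rank shift, CREBBP-KO (CBP KO) minus WT in normal-score units, of each tested interval in the 20 deserts with the most acetylated intervals (numbers in brackets are tested intervals), without removal of the GC trend; red is called higher, blue lower and grey not called, and vertical offsets are only for display. The 4 called intervals of COG6-FOXO1 lie right of 2, while the 8 tested intervals of NETO1-FBXO15 and 20 of METTL15-KCNA4 all lie left of 0.

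Developmental regulators were read from a list of 77 genes for transcription factors and signalling ligands known to be flanked by wide gene-poor regions. Of these, 32 were the nearest protein-coding start of 137 desert intervals, out of 647 nearest genes in all. Among the 135 tested, 36 were lower (26.7%) and 17 higher (12.6%), with a median shift of -0.14, and with the GC trend removed 24 were lower and 27 higher. The shares in all desert intervals, given above, were 32.6% and 10.2%. MYC had 19 such intervals (3 lower, 2 higher), NR2F1 had 16 (4 and 0) and ZEB2, a repressor of the E-cadherin gene, had 13 (2 and 2). KLF4, a factor of epithelial differentiation, had 12 with 2 higher and 0 lower, and LMO4 had 7 with 3 and 3. SOX9, a factor of the intestinal crypt base, had 6 with 2 higher and 0 lower. The counts of this list include intervals that passed the fold filter in 1 genotype alone, whose direction is no result. The 2 higher KLF4 intervals had passed in CREBBP-KO alone. The highest KLF4 interval (chr9:108045472-108059387) stood at 98.9, 98.9 and 98.3 in WT and 99.6, 99.4 and 99 in CREBBP-KO. Its genotypes did not overlap, but its shift of 0.24 ± 0.17 SE did not pass the test (limma adjusted p = 0.273). It was called higher with the GC trend removed (shift 0.43, limma adjusted p = 0.0456) and when ranked by −log10 p (shift 0.41, limma adjusted p = 0.0296). NR2F2 had 8 intervals, TBX3 had 7 and MEIS1 had 6, and the highest interval of each did not pass the test (limma adjusted p 0.676, 0.619 and 0.265).

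Calls did not follow height in the lists steadily. Cut by mean percentile into 4 groups of nearly equal size, the tested desert intervals had 215 lower and 97 higher calls in the lowest group, 144 and 47 in the next, 142 and 45 in the one above and 186 and 26 in the highest. Intervals of the lowest group lie nearest the fold limit. The genotypes did not overlap at 762 lower (36.2%) and 304 higher (14.4%) desert intervals, where 23.3% and 24.8% of all tested intervals did not. At a stricter adjusted p under 0.0001, 79 were lower and 12 higher, where 568 and 407 of all tested intervals were. The counts by height, by overlap and at the stricter threshold include intervals that passed the fold filter in 1 genotype alone. Their direction is no result, and none of these counts was repeated with the GC trend removed. Calls by height over all tested intervals were not computed. Over the desert intervals with a peak in all 6 libraries, scores of libraries of the same genotype correlated at 0.873 to 0.893. Scores of libraries of different genotypes correlated at 0.611 to 0.650. The filter kept part of these intervals for being high in 1 genotype, which can lower the correlation between genotypes. No value without such intervals is given here, so the gap between the ranges is a description.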

How the data were processed

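Peak lists of H3K27ac ChIP-seq from 3 WT and 3 CREBBP-KO libraries were used; the 2 inputs were not analysed here. The authors aligned reads to hg38 with BWA in the nf-core ChIP-seq pipeline and ran MACS2 for narrow peaks on each library separately. In the deposited lists the fold is a linear ratio of a peak to its local background, and significance stands as −log10 p-values and −log10 q-values. The lists hold no reads and the read number of each library is not given in the sources used here, so no counting interval was computed and the DiffBind test of the study was not repeated. The methods describe downsampling, and its place relative to these lists is not given in the sources used here.

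Peaks were merged and annotated with GENCODE release 44, with GC content read from hg38. No filter for repeats or poorly mappable regions was applied to the lists here, so named intervals were not checked for such sequence. Rank shifts were fitted with limma (lmFit, eBayes with trend, Benjamini-Hochberg) to normal scores of within-library ranks, over 34847 intervals with a peak in all 6 libraries; all other tests were two-sided exact permutation tests over libraries. The GC trend was a cubic polynomial (degree 3) per library, removed with each interval's mean score over the 6 libraries kept. This correction and the restriction to intervals passing in both genotypes were chosen after seeing the data. Same-numbered libraries did not deviate together (r = 0.0106, 0.0142 and 0.0281), so numbers were not taken as pairs. The fit was tested on simulated data in which 200 of 34847 intervals were shifted. It recovered 14 at a shift of 1 unit, 138 at 1.5 and 197 at 3, and without any shift it called 0. Far more intervals were called in the data than were shifted there, so these shares do not give the power of the calls above.

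The members, the gene list and the tests were chosen with earlier results of these data known. Named intervals were the 6 highest, the 8 largest shifts each way without overlap (at most 2 per desert), up to 6 per genotype without a peak in the other, the 3 farthest, those of the 5 richest deserts, the 3 on either side of 200 kb and the highest at the 8 listed regulators with most intervals; the deserts outside the 5 richest, and the genes SOX9 and KLF4 as counts, were named after their values were seen. Some named intervals are not reported here. Motif letters were searched on both strands in 300 bases around each summit; the searched motifs can overlap. Fold limits of 3 and 10, distances of 100 and 500 kb, other merging, ranking and model choices, and each library left out were tried. Analyses were run in R 4.3.3 with limma 3.58.1 and in Python 3.11.15 with scipy 1.17.1, pandas 2.3.3, numpy 2.4.6, pysam 0.24.0 and matplotlib 3.10.9, with samtools 1.23.1.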

Additional observations from a re-analysis of the deposited data

How the results depend on the processing

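The counts of 687 lower and 215 higher desert intervals changed with the GC trend: 405 and 339 with it removed, 414 and 338 with length trends also removed, and 411 and 356 with height as well. Among intervals that passed the fold filter in both genotypes they were 360 and 83, and 191 and 168 with the GC trend also removed. A fold of at least 10 left 265 and 61, distances over 100 kb and 500 kb gave 1066 and 446, and 279 and 54, and the demand for 200 kb from any transcript start outside any gene gave 24 and 3; each tests another number of intervals. Ranking by −log10 p gave 457 lower and 228 higher, and the cause was not tested. With a library left out, lower counts were 555 to 667 and higher counts 163 to 191. The fold limit of 3, the looser replicate rule, the merge overlap, the starts of all transcripts of protein-coding genes and limma without a trend stayed within 1.5 times.

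The gap of -1.21 percentile points between desert and intergenic intervals over the 6 libraries passed the threshold at a fold of at least 3 (-2.12), beyond 500 kb (-2.63) and by −log10 p (-2.75), and was -0.619 beyond 100 kb and 0.164 at a fold of at least 10. Without 1 library it was -1.46 to -0.949. The gap in width of -66.1 bases was -92.2 at a fold of at least 3, -175 beyond 500 kb and 255 at a fold of at least 10 (exact sign-flip permutation test, p = 0.031), -17.7 beyond 100 kb (p = 0.469), and -83.2 to -41.5 without 1 library; the cause of these turns was not tested. The differences between genotypes kept their sign under every alternative run, -0.942 to -0.587 points for the desert share (-1.06 to -0.731 without 1 library), -2.47 to -0.824 percentile points, the last by −log10 p with -1.47 beyond 100 kb (-2.21 to -1.93 without 1 library), and -230 bases beyond 500 kb to -75 at a fold of at least 3, with -77.3 beyond 100 kb (-157 to -108 without 1 library); tests of 3 libraries against 3 could not pass 0.05.

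The replicate block gave 695 lower and 217 higher desert intervals, 408 and 337 with GC and length trends removed, and an exact sign-flip permutation p = 0.25 for the desert share, the smallest that 3 pairs allow; it changed no other call. The libraries share only a number. Of 37 named intervals tested, the 16 largest shifts, whose direction was fixed by the choice, were 1.62 to 3.38 and -3.21 to -1.75 without 1 library and 1.39 to 3.07 and -2.54 to -1.50 by −log10 p. The HAS2-ZHX2 interval turned to 0.0333 with the GC trend removed, and it and the interval near RPIA lost their call in most of the fits that left out 1 library. The KLF4 interval gained a call with the GC trend removed and by −log10 p, that near EDN1 with the GC trend removed (shift 0.61), and the highest CITED2-NMBR interval without WT replicate 3 (shift -0.81, limma adjusted p = 0.00601). Peak folds without reads give no depth and no error within a library, so weak intervals and missing peaks cannot be bounded.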

Other observations

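Beyond the kept intervals, 8127 further desert intervals had peaks that did not pass the fold filter in either genotype, out of 10337 desert intervals of any fold. Among those 8127, 277 were present in each WT list and absent from each CREBBP-KO list, and 233 the other way round. Over the whole genome, the same counts among intervals that did not pass were 1489 and 3718, with the CREBBP-KO lists the longer ones. The number of all intervals that did not pass is not given here. The desert counts therefore cannot be set against a background share, and they are no result about deserts.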
